A study of Drosophila melanogaster with 20 samples.

Results

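Noncoding RNA genes were followed in the heads of adult Drosophila melanogaster males. The members were the rows of a table of 9831 genes whose symbol held CR followed by a digit, held "RNA:", or began with pncr or Hsromega, with mitochondrial and roX symbols to be left out. This rule took 225 rows and met no mitochondrial or roX symbol. It used names only and no measured value. The symbols date from an older annotation, so present names, classes and neighbours were read from FlyBase genes on a later genome release (BDGP6.54) and, failing that, from RefSeq symbols. The first matched 198 members by identifier, the second 3 by symbol, and 24 matched neither. In these annotations 67 members are long noncoding RNAs, 20 are antisense RNAs, 17 are small structured RNAs (spliceosomal, nucleolar and cytoplasmic), 2 are hairpin RNAs, 81 are pseudogenes and 7 belong to ribosomal DNA. The remaining 7 are now annotated as protein-coding genes, among them pncr008:3L, pncr004:X, pncr011:3L and pncr013:4, so the older label of noncoding does not hold for them.

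The study compared ageing in wild-type flies and in chm/+ flies, which carry 1 mutant copy of chameau, the gene for a MYST-type enzyme that acetylates histones. Young wild-type flies gave 5 libraries, midlife wild-type flies 4, young chm/+ flies 6 and midlife chm/+ flies 5. The young groups were taken at 7 days of age and the midlife groups at 22 to 23 days. All were males from populations of mixed sex, each library came from pooled heads and from poly(A)-selected RNA, and the labels do not name the chm allele or say how many independent crosses or cultures the libraries represent. The p-values therefore measure the spread between these libraries, which may be partly technical. Because the RNA came from whole heads, fewer cells of a type and less RNA per cell cannot be told apart for any gene below.

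Noncoding RNAs act through base pairing and through the proteins they hold. Spliceosomal snRNAs recognise and cut introns, small nucleolar RNAs guide chemical modification of ribosomal RNA, 7SL RNA is the scaffold of the signal recognition particle that brings secretory proteins to the endoplasmic reticulum, and 7SK RNA holds the elongation factor P-TEFb in an inactive state. Long hairpin RNAs are cut by Dicer-2 into endogenous small interfering RNAs, long noncoding transcripts can be the primary transcripts from which microRNAs are cut, and antisense RNAs are read from the strand opposite another gene. Most spliceosomal, nucleolar, 7SL and 7SK RNAs carry no poly(A) tail, so what poly(A)-selected libraries count of them is not their cellular pool.

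The deposited values were read counts that the authors had adjusted to a common library size, and column totals lay between 27572012 and 30470376. Members took 0.775% to 1.26% of a column's total. The heterozygous state of chm was visible in its own transcript: 615 ± 36.6 in young wild type and 613 ± 46.3 in midlife wild type (SD, n = 5 and 4), against 321 ± 24.6 and 336 ± 22.0 in chm/+ (SD, n = 6 and 5). The photoreceptor opsin ninaE, a mark of head tissue, was at 1020282 to 1481902. A few libraries stood apart from the others of their group for many members. Midlife wild-type library 2 held the lowest of the 20 values for 56 members and young chm/+ library 2 for 39. The highest value lay in midlife chm/+ library 12 for 34 members and in midlife chm/+ library 5 for 25. It lay in young chm/+ libraries 11 and 4 for 29 and 26. Such counts were not made over all genes. The table's first 10 columns and last 10 columns, each with libraries of all 4 groups, also differed: with a column-set term in the model, 107 members (47.6%) and 4751 of all genes (48.3%) passed for the set. The labels name no batch, so what the sets are was not determined. Values below are given in the order of the column numbers (1, 2, 3, 4 and 5 for young wild type; 1, 2, 4 and 5 for midlife wild type; 2, 3, 5, 11 and 12 for midlife chm/+), and for young chm/+ as the lowest, the highest and the median of 6 libraries.

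Members were mostly scarce. Their median level was 96.1 normalized counts against 792 over all genes. Under 50 normalized counts lay 67 members, from 50 to 1000 lay 138, and 20 were at 1000 or above. CR42862, a long noncoding RNA on arm 3L that shares exonic sequence with CG33229 on the same strand, had the highest mean at 151974 normalized counts, followed by the pseudogene CR10102 on 2R at 39799 and the long noncoding RNA CR34335 on X at 16702. The 3 most abundant members of each library made up 64.6% to 76.1% of its member counts. An exon length was at hand for 198 members, not including CR34335 and the abundant hairpin RNA CR18854. Among these 198 the order per kilobase of annotated exon differed: CR10102 had 29525 normalized counts per kilobase, CR42862 27707 and CR40469 27558, and the next, CR31451 (lncRNA:mimi), had 3940. Hsromega, ranked high by raw level, had 391 per kilobase.

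Several rows cannot be read as separate genes. The 7SL rows CR32864 and CR42652 were identical in every library, the 3 U6 rows of the 96A cluster differed by at most 6.2%, and the 5 U2 rows, copies of a repeated gene, by up to 51.4%. The sources used here do not say how reads that match several copies were counted, or whether strand was used. In the later annotation 58 members share exonic sequence with another gene and 32 lie in or hold its introns or span, so for these, and for antisense pairs, reads of the partners cannot be told apart. When copy groups are counted once, the 38 members called for age in wild type become 31 and the 32 called in chm/+ become 29.

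With age, 38 of the 225 members passed in wild type and 32 in chm/+ at an adjusted p below 0.05 (limma across all 9831 genes, Benjamini-Hochberg adjustment). In wild type that is 16.9% of members, 27 higher and 11 lower at midlife, where 23.7% of all genes passed (12.4% higher and 11.3% lower). In chm/+ it is 14.2% of members, 24 higher and 8 lower, where 16.0% of all genes passed (8.63% higher and 7.36% lower). Higher calls were 12.0% of members in wild type and 10.7% in chm/+, and lower calls 4.89% and 3.56%. Without midlife library 5 or young library 1 the wild-type count is 20 or 24, and the share of all genes in these fits was not computed. The median member changed by 0.07 and 0.04 on the log2 scale (all genes -0.02 and -0.01). Deviations of young and midlife chm/+ libraries with the same number correlated positively, though for young libraries 3 and 11 another midlife library correlated better. Whether such libraries are pairs or only share a column set cannot be told apart. With that number as a block the count in chm/+ is 17, with 14 higher and 3 lower. That is 7.56% of members beside 7.09% of all genes in that fit. Of the members called, 22 passed in both genotypes, all in the same direction (16 rose and 6 fell). They were 57.9% of the wild-type calls and 68.8% of the chm/+ calls. The same overlap over all genes was not computed, so whether it is particular to the members was not determined.

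Genotype moved fewer members. Between chm/+ and wild type, 4 members passed in young flies (1.78%, 3 higher and 1 lower in chm/+, against 1.45% of all genes, 0.895% higher and 0.559% lower) and 7 at midlife (3.11%, 6 higher and 1 lower, against 1.95% of all genes, 0.712% higher and 1.24% lower). Leaving out 1 library gave 1 to 7 young calls (1 without young wild-type library 3 or young chm/+ library 1, 2 without young wild-type library 1 or 2, 7 without midlife wild-type library 1) and 4 to 13 midlife calls (4 without midlife wild-type library 4, 13 without library 1). The share of all genes in those fits was not computed. Under upper-quartile scaling the split was 4 higher and 0 lower in young flies (1.42% of all genes called in either direction). At midlife it was 6 higher and 2 lower (2.00% of all genes). With values divided by the column total it was 6 higher and 3 lower at midlife (2.20% of all genes). For the difference of the age changes between the genotypes, 1 member passed, with the smaller change in chm/+ (0.444%, against 0.356% of all genes, 0.0203% higher and 0.336% lower). The median member lay 0.13 above wild type in young chm/+ flies and 0.20 above it at midlife, where the median of all genes was 0.00 at both ages. Of 225 members, 168 had a positive value at each age and 138 at both. The same counts over all genes were not computed, and rows of a copy group are not independent. The young and midlife genotype comparisons use different libraries, while each shares libraries with the age comparisons.

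Some markers of other tissues moved with age in the same libraries, and others did not. The summed level of the gut genes Amy-p and Mal-A1 was 9742 to 13667 in young and 23005 to 32714 in midlife wild type, and 6223 to 18449 in young and 19646 to 34493 in midlife chm/+; both listed genes are in the table. Amy-p, an amylase, was the gene that rose (log2 1.29, adjusted p = 0.00056 in wild type; 1.33, adjusted p = 0.000236 in chm/+), and Mal-A1 did not pass. The blood cell genes Hml and NimC1 summed to 1575 to 3371 and 5334 to 7277 in young and midlife wild type and to 2674 to 4971 and 3177 to 7064 in chm/+. Both rose in wild type (log2 1.26, adjusted p = 0.00144, and 1.85, adjusted p = 0.000327). Neither passed in chm/+ (0.29, adjusted p = 0.472, and 0.37, adjusted p = 0.46). Of 8 testis and accessory gland markers 1 was in the table, fzo, at 17.1 to 82.2. It did not pass for age in wild type (0.07, adjusted p = 0.87) or chm/+ (0.34, adjusted p = 0.272). The yolk gene Yp1 did not pass either (0.26, adjusted p = 0.842, and 0.46, adjusted p = 0.718). Its highest young chm/+ value was 2716, against a group median of 193. Of 2 ovary markers 1 was in the table, osk, at 6.52 to 16.6 in young and 25.2 to 43.0 in midlife wild type and 3.48 to 20.1 and 18.4 to 40.1 in chm/+, and it rose in both genotypes (0.97, adjusted p = 0.000775, and 1.00, adjusted p = 0.000317). Among head markers the neuronal gene nSyb fell in wild type (log2 -0.42, adjusted p = 0.0128), the antennal gene Obp56d rose in wild type (0.60, adjusted p = 0.00445), and the fat body gene Lsp2 fell in chm/+ (-1.39, adjusted p = 0.0179), with -1.17 in wild type (adjusted p = 0.0555). Their part in the age changes of the members was not tested.

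Among the 17 small structured RNA rows, only U6 passed for age, and it was higher at midlife in both genotypes. U6 forms the catalytic centre of the spliceosome. For snRNA:U6:96Aa (FBgn0004188, on 3R, in an intron of Esyt2 on the same strand) the normalized counts were 71.9, 110.2, 113, 80.96 and 66.7 in young wild type and 204, 85.7, 138 and 168 in midlife wild type. Young chm/+ libraries ran from 68.7 to 122 with a median of 89.7, and the midlife chm/+ libraries held 176, 203, 183, 132 and 180.0. The wild-type groups overlapped only through midlife library 2, while every midlife chm/+ library exceeded every young one. The change was 0.63 in wild type (SE 0.19, adjusted p = 0.0221) and 0.84 in chm/+ (SE 0.18, adjusted p = 0.00226) on the log2 scale. The wild-type call was lost without midlife library 1 or 5 or young library 1 or 5, and in chm/+ with the replicate block the value was 0.92 (adjusted p = 0.0521). Since U6 transcripts end in uridines and not in a poly(A) tail, these counts are of RNA that passed the selection.

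**Figure D1:**
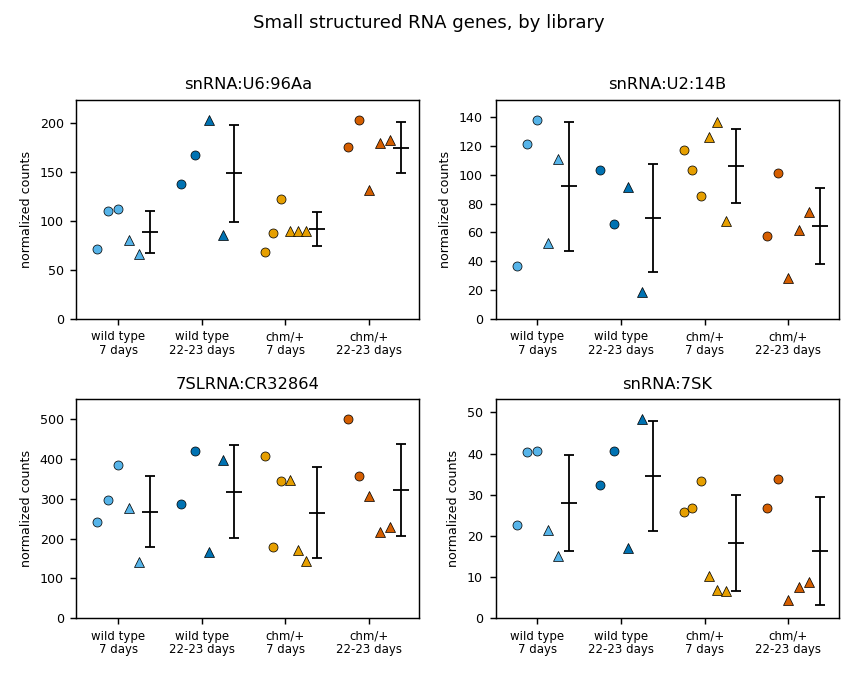
Normalized counts of the small structured RNAs by library (vertical axis) of snRNA:U6:96Aa, snRNA:U2:14B, 7SLRNA:CR32864 and snRNA:7SK in the 4 groups. Circles are libraries of the table's first 10 columns, triangles of the last 10, and the bar beside each group is the mean ± SD. All 5 midlife chm/+ libraries of U6 lie above the 6 young ones, and in chm/+ every circle of 7SK lies above every triangle.

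The U2, 7SL and 7SK rows did not pass for age or genotype. U2 pairs with the intron's branch point. For snRNA:U2:14B on X the normalized counts were 36.8, 122, 138, 52.5 and 111 in young wild type, 91.7, 18.9, 103 and 65.97 in midlife wild type and 57.8, 102, 74.3, 28.5 and 61.5 in midlife chm/+, and young chm/+ ran from 67.7 to 137 with a median of 110.4. The groups overlapped widely (log2 -0.36, adjusted p = 0.541 for age in wild type; -0.65, adjusted p = 0.216 in chm/+). For 7SL (CR32864) the values were 241, 297, 386, 276 and 140.2 and 165, 397, 288 and 420.0 in young and midlife wild type, which overlap. 7SK differed by column set: in chm/+ it lay at 25.7 to 33.7 in the first set and 4.44 to 10.1 in the second, and its set term was -0.73 (SE 0.14, adjusted p = 0.00037). Its difference of -0.73 between genotypes at midlife did not pass (adjusted p = 0.32).

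The nucleolar RNAs gave 1 call, in the comparison of genotypes. H/ACA RNAs such as snoRNA:Psi28S-3186 guide the conversion of a uridine of ribosomal RNA to pseudouridine. snoRNA:Psi28S-3186 (FBgn0086662, in an intron of kra, same strand) had 35.8, 27.01, 21.5 and 27.3 in midlife wild type and 54.6, 48.3, 51.1, 56.9 and 63.5 in midlife chm/+, groups that did not overlap (log2 difference 0.72, SE 0.15, adjusted p = 0.0134). In young flies the values were 43.8, 25.7, 43.2, 45.7 and 31.7 in wild type and 41.7 to 87.3 with a median of 58.4 in chm/+ (log2 0.54, adjusted p = 0.0614). Without midlife wild-type library 4 the midlife adjusted p was 0.0768. snoRNA:Psi28S-3571, in another kra intron, had 0.42 (adjusted p = 0.328), and the host gene kra had 0.30 (adjusted p = 0.474). The other 4 snoRNA and scaRNA rows, snoRNA:Me28S-A1322, snoRNA:Psi18S-531, snoRNA:Psi28S-2179 and scaRNA:MeU5-C46, had age and genotype differences between -0.19 and 0.20, none of them called.

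For proteins that bind or process these RNAs only the transcripts of their genes were measured, and few of those passed. Transcripts of all 8 listed signal recognition particle proteins and the 5 of the 7SK particle and P-TEFb were measured, and none passed for age in either genotype. Their median log2 changes were 0.14 and -0.13 in wild type (all genes -0.02) and 0.07 and -0.12 in chm/+ (all genes -0.01). Of 17 Sm and snRNP proteins, snRNP-U1-70K, part of the U1 particle, fell in wild type (log2 -0.28, adjusted p = 0.0418) and none passed in chm/+. Of 12 snoRNP proteins, Nop17l rose in chm/+ (0.34, adjusted p = 0.0064). Of 16 measured exosome, TRAMP and RNA decay genes, ZC3H3 fell in both genotypes (-0.39, adjusted p = 0.0031, and -0.31, adjusted p = 0.0114), Dis3, the catalytic exosome subunit, rose in wild type (0.27, adjusted p = 0.0151), and Trf4-1, a poly(A) polymerase of the nuclear decay complex, fell in chm/+ (-0.19, adjusted p = 0.035). The 16 measured Integrator and snRNA transcription genes gave no call for age. Of 9 measured poly(A) tail factors twin, a deadenylase subunit, fell in wild type (-0.17, adjusted p = 0.0397) and PAN2 rose in chm/+ (0.19, adjusted p = 0.0254). The 2 measured RNase MRP and P proteins gave none. No member of these lists passed between genotypes. These counts stand beside the 23.7% and 16.0% of all genes called for age.

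The hairpin RNA pncr009:3L (FBgn0062928, now hpRNA:CR33940, on 3L) separated the genotypes more than any other member called. Wild-type libraries held 27.9, 39.3, 35.7, 28.8 and 28.2 normalized counts when young and 15.9, 21.6, 22.03 and 22.7 at midlife. Young chm/+ libraries ran from 133 to 169.6 with a median of 144, and midlife chm/+ libraries held 94.8, 122, 90.4, 103 and 71.2. Every chm/+ library was above every wild-type library of either age. The genotype difference was 1.80 in young flies (SE 0.11, adjusted p = 6.9e-09) and 1.65 at midlife (SE 0.12, adjusted p = 1.09e-07), a call that stood under all 33 alternatives with a value. Age lowered it in both genotypes (log2 -0.41, adjusted p = 0.0193, and -0.56, adjusted p = 0.00131), though the wild-type call was lost without young library 2 or midlife library 1 and the chm/+ call was lost with the replicate block (-0.55, adjusted p = 0.0757). It shares exonic sequence with CG32212 on the opposite strand, a gene not in the table. The other hairpin RNA, CR18854, is known as a source of endogenous small interfering RNAs and passed in no comparison (0.28 and 0.30 between genotypes, with group means from 8365 to 10511).

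Hsromega (FBgn0001234, on 3R) is the nuclear RNA that organises omega speckles, stores of hnRNP proteins that respond to heat shock. Its normalized counts were 4884, 5726, 6062, 7528 and 7553 in young wild type, 8718, 4677, 6106 and 5983 in midlife wild type and 10556, 11459, 12259, 10146 and 14037 in midlife chm/+, with young chm/+ from 6660.2 to 11272 with a median of 9004. At midlife every chm/+ library was above every wild-type library (log2 difference 0.90, SE 0.19, adjusted p = 0.0129). In young flies the groups overlapped (log2 0.49, adjusted p = 0.179), and age gave -0.01 in wild type and 0.40 in chm/+, neither called. The midlife call was lost without midlife wild-type library 2 (adjusted p = 0.0644). Within the first column set the difference was 0.86 (adjusted p = 0.00255) and within the second 0.91 (adjusted p = 0.205). Of 11 hnRNP genes of omega speckles Hrb98DE (-0.29, adjusted p = 0.0065) and Saf-B (-0.40, adjusted p = 0.0469) fell with age in wild type, and none passed between genotypes.

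Among 9 members that hold a whole microRNA gene on their strand or are annotated as its primary transcript, a group formed after the values had been seen, 4 rose with age in wild type and 5 in chm/+, and none fell, where 12.4% and 8.63% of all genes rose. As the group was formed with the values known, these counts are a description. A host's level is not that of its mature microRNA. The clearest was CR43651 (FBgn0263660, on 2R), the host of mir-14, a microRNA known in flies for roles in fat metabolism and cell survival. Its normalized counts were 9.79, 17.2, 14.9, 19.1 and 24.4 in young and 117, 79.1, 115 and 119.9 in midlife wild type, and 15.4 to 26.9 with a median of 20.7 in young and 97.9, 117, 118, 79.05 and 96.4 in midlife chm/+. Every midlife library was above every young library of its genotype, with midlife wild-type library 2 the lowest of its group. The change was 1.96 (SE 0.15, adjusted p = 3.73e-08) in wild type and 1.70 (SE 0.14, adjusted p = 7.4e-08) in chm/+ on the log2 scale, and its genotype differences did not pass.

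**Figure D2:**
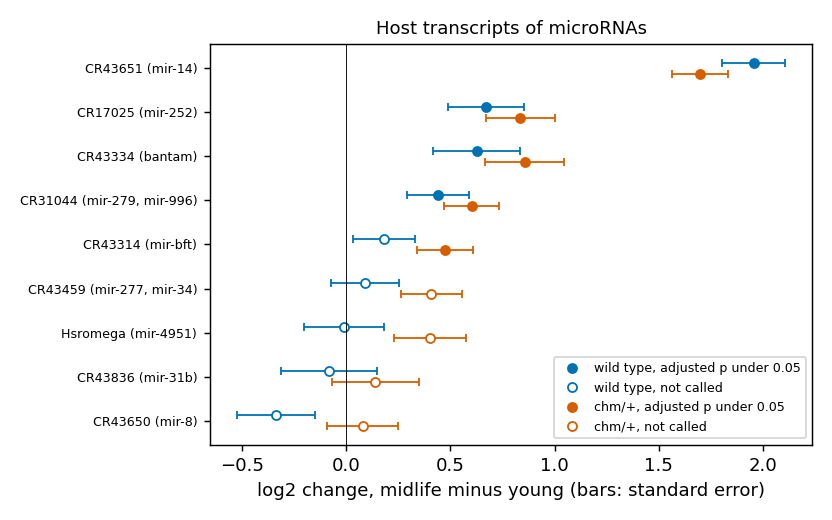
Log2 change from young to midlife (horizontal axis, bars are standard errors) of the 9 microRNA hosts (rows) in wild type and chm/+, with filled points for changes called at an adjusted p below 0.05. The 4 filled points of wild type and the 5 of chm/+ all lie to the right of 0.

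The host of bantam, CR43334, rose in both genotypes. Bantam promotes tissue growth and blocks the death gene hid. CR43334 had 54.8, 81.4, 80.7, 77.7 and 75.3 in young and 156, 78.1, 124 and 139.7 in midlife wild type, where the low value is library 2, and 138, 169, 151, 123 and 182 in midlife chm/+ (log2 0.63, adjusted p = 0.0357, and 0.86, adjusted p = 0.00357). Its wild-type call was lost without midlife library 1, 4 or 5 or young library 1 or 5 (adjusted p up to 0.111). CR31044, host of mir-279 and mir-996, rose by 0.44 (adjusted p = 0.0356) and 0.60 (adjusted p = 0.00362), and CR17025, host of mir-252, by 0.67 (adjusted p = 0.0118) and 0.84 (adjusted p = 0.00153). The wild-type call of CR31044 was lost without midlife library 1 or 5 or young library 1, 2 or 3, and that of CR17025 without midlife library 1 or 5, while the chm/+ value of CR31044 with the replicate block was 0.65 (adjusted p = 0.0947). CR17025 lies opposite an exon of side-IV, which fell in wild type (-0.36, adjusted p = 0.005). CR43314, host of mir-bft, a microRNA that protects sensory bristle cells from death, held 52.7, 43.2, 29.6 and 44.3 in midlife wild type and 83.5, 84.2, 64.9, 71.7 and 85.7 in midlife chm/+. Those groups did not overlap (log2 difference 0.71, SE 0.15, adjusted p = 0.0119), but without midlife wild-type library 4 the adjusted p was 0.073. Its age change passed in chm/+ (0.47, adjusted p = 0.0201; with the replicate block 0.61, adjusted p = 0.0619; without midlife library 3 adjusted p = 0.0527) and was 0.18 in wild type. The hosts of mir-277 and mir-34 (CR43459), of mir-8 (CR43650), of mir-31b (CR43836) and of mir-4951 (Hsromega) had changes between -0.34 and 0.41 with age and did not pass. mir-34 is known in flies as a microRNA of ageing neurons, and its host had 0.09 in wild type and 0.41 in chm/+ (adjusted p = 0.0637).

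The pseudogene CR14033 (FBgn0046776, on 2L) rose more than any other called member. It held 16.2, 22.99, 18.7, 20.3 and 30.04 in young and 276, 139, 166 and 217 in midlife wild type, and 11.04 to 23.2 with a median of 16.8 in young and 99.00, 129, 122, 150.4 and 69.1 in midlife chm/+. No library of the young groups reached the lowest midlife value of its genotype. The changes were 2.54 (SE 0.20, adjusted p = 3.76e-08) in wild type and 2.00 (SE 0.18, adjusted p = 2.65e-07) in chm/+. It lies opposite an exon of tkv, the receptor of the growth factor Dpp, and tkv had 0.13 and 0.12 (adjusted p = 0.22 and 0.242). The tkv values did not pass.

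**Figure D3:**
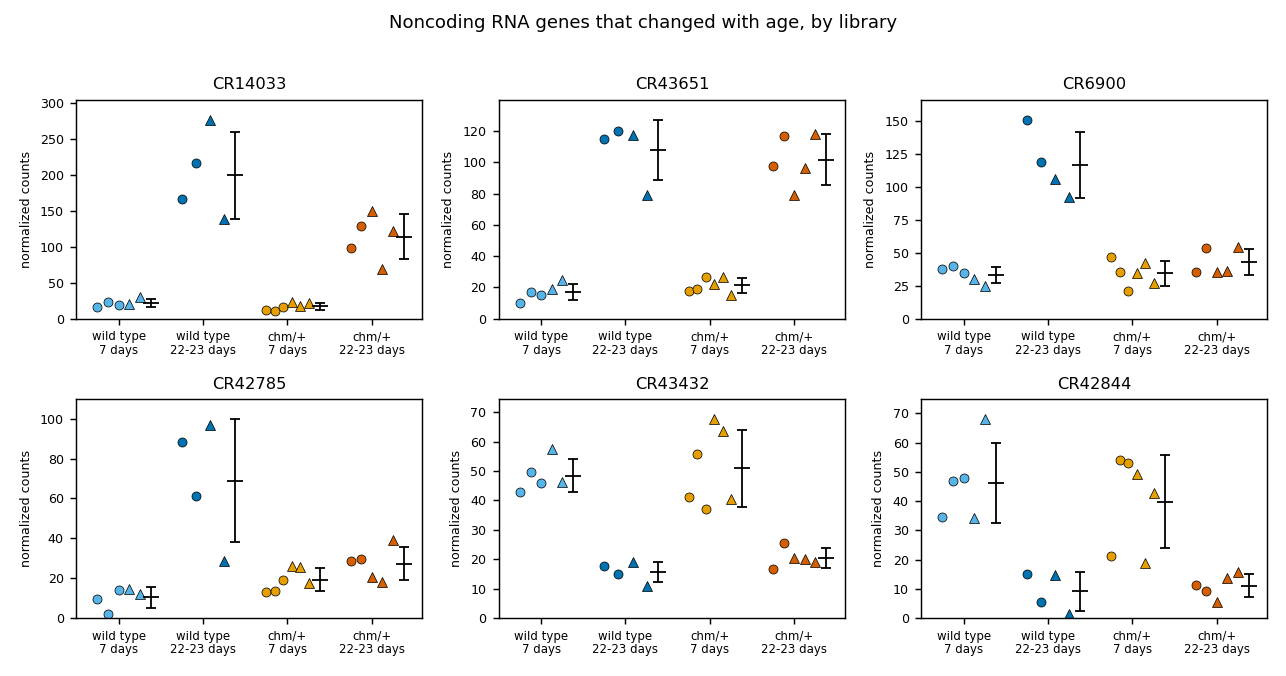
Normalized counts by library (vertical axis) of CR14033, CR43651, CR6900, CR42785, CR43432 and CR42844 in the 4 groups, with circles for the first 10 columns, triangles for the last 10 and bars for the mean ± SD. The ages do not overlap for CR14033 in either genotype, while for CR6900 they overlap in chm/+.

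Other members rose in both genotypes. The long noncoding RNA CR43144 on 2L had 2.28, 12.5, 7.47, 14.7 and 5.76 in young and 61.1, 21.97, 45.2 and 66.2 in midlife wild type (log2 1.42, adjusted p = 0.000293) and rose in chm/+ as well (0.90, adjusted p = 0.00717; 0.77, adjusted p = 0.158 with the replicate block). pncr016:2R, now a long noncoding RNA, had 95.7, 182, 196, 237 and 213 in young and 468, 336, 452 and 562 in midlife wild type, groups that did not overlap. Its changes were 1.27 (adjusted p = 0.00127) and 0.80 (adjusted p = 0.0218; 0.67, adjusted p = 0.168 with the block), and the chm/+ call was also lost without midlife library 3 or 5 or young library 4. CR42646, a long noncoding RNA on 2R, rose by 0.65 (adjusted p = 0.0025) and 1.09 (adjusted p = 7.91e-06). The pseudogenes CR43086 and CR43087 on 3L rose by 1.30 and 1.21 in wild type and 1.26 and 1.34 in chm/+. They were counted as a copy group, but their sequences were not compared, and their rows differed by up to 42.4% in a library. The scarce pseudogene CR30029 rose by 0.94 and 0.87. Of the 9 X-linked copies of the CR32821 group, 4 passed in wild type with values from 0.66 to 0.74, and none in chm/+; the call of CR32821 itself was lost in 6 of the fits that leave out 1 library.

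CR43653 (lncRNA:Irar) lies in an intron of InR, the fly insulin receptor, on the opposite strand, and both rose with age. CR43653 held 42.9, 47.8, 49.7, 44.8 and 59.3 in young and 81.3, 59.6, 74.02 and 89.7 in midlife wild type, and 38.1 to 53.1 with a median of 44.97 in young and 88.7, 117, 115, 76.3 and 64.8 in midlife chm/+, with no overlap between the ages. Its changes were 0.51 (adjusted p = 0.0124) and 0.81 (adjusted p = 0.000181), and those of InR were 0.76 (adjusted p = 0.00146) and 0.82 (adjusted p = 0.00048). The wild-type call of CR43653 was lost without midlife library 5 (adjusted p = 0.0562). Without stranded counts the reads of the pair cannot be told apart. CR43243, antisense to CG10433, rose by 0.36 and 0.48, the wild-type call lost in 6 of the fits that leave out 1 library, and CG10433 rose in wild type (0.42, adjusted p = 0.0116). Of 7 members called in wild type that overlap a measured gene on the opposite strand, that partner passed in the same direction for 3, in the other direction for 1 and not at all for 3. In chm/+ the partner passed in the same direction for 1 of 8 and not at all for 7.

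Fewer members fell. CR42844 on 2L, a long noncoding RNA, went from 34.4, 46.9, 47.8, 34.2 and 68.00 in young to 14.7, 1.25, 14.96 and 5.58 in midlife wild type, and from 18.7 to 54.00 with a median of 46.02 to 11.3, 9.26, 15.8, 5.46 and 13.7 in chm/+. The groups did not overlap in either genotype. The changes were -1.39 (SE 0.24, adjusted p = 0.000362) and -1.04 (SE 0.22, adjusted p = 0.00249; -0.94, adjusted p = 0.0698 with the replicate block). CR43432 (lncRNA:marge) on 3L held 42.9, 49.8, 45.9, 57.4 and 46.2 in young and 18.9, 10.9, 17.5 and 15.1 in midlife wild type, and 37.1 to 67.6 with a median of 48.3 in young and 16.5, 25.6, 19.2, 20.5 and 20.1 in midlife chm/+. Its changes were -1.07 (adjusted p = 1.89e-05) and -0.89 (adjusted p = 7.41e-05), again without overlap. CR43199 on X fell in wild type (-0.87, adjusted p = 0.00311) and had -0.36 in chm/+.

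**Figure D4:**
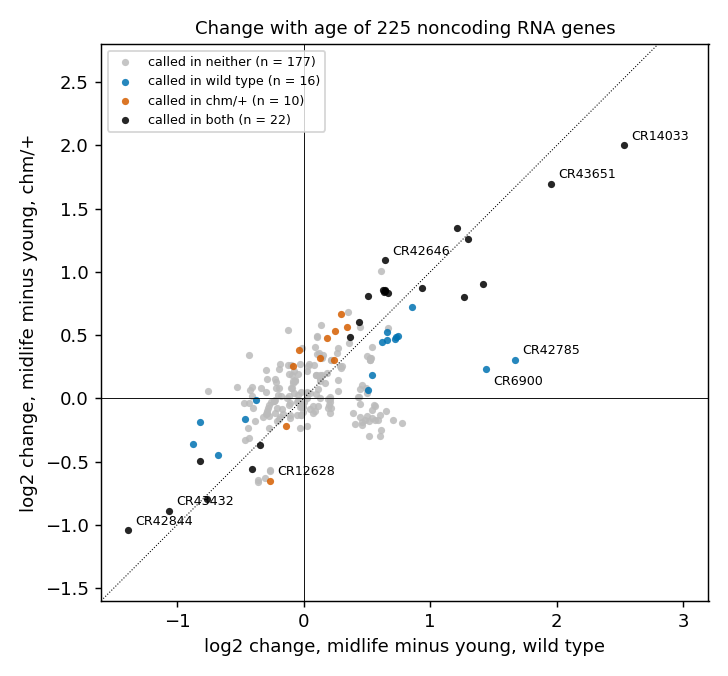
Age change of each member in wild type (horizontal axis, log2) against that in chm/+ (vertical axis, log2), with members called in both, 1 or neither genotype marked. The dotted line marks equal change. The 22 members called in both changed in the same direction, 16 to the upper right and 6 to the lower left. The matching overlap over all genes was not computed.

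The most abundant members, CR42862 and CR10102, fell with age in wild type, and both calls depended on single libraries. CR10102 on 2R had 36587, 59199, 61790.4, 33257 and 33174 in young and 24271, 25897, 20507 and 27145 in midlife wild type, without overlap (log2 -0.82, adjusted p = 0.0265), but the call was lost without midlife library 4 or young library 2 or 3. In chm/+ it had 41719, 39987, 38522, 35092 and 37979 at midlife and 20756 to 65637 with a median of 44777 in young flies (-0.18, adjusted p = 0.695), and the difference of the age changes did not pass (adjusted p = 0.832). It lies between Arc1 and Arc2, whose proteins form virus-like capsids and which were looked at after these values had been seen. Arc1 fell as well in wild type (-0.79, adjusted p = 0.0402), while Arc2 did not pass (-0.58, adjusted p = 0.182). CR42862 fell in wild type by -0.38 (adjusted p = 0.0429), a call lost in 12 of the fits that leave out 1 library. CR31451, which partly overlaps mir-9381, fell in wild type (-0.46, adjusted p = 0.0101). CR12842, in the cluster of tetraspanin genes on 2R, fell in both genotypes (-0.82 and -0.50, the latter with an adjusted p of 0.112 with the replicate block). Of genes in that cluster looked at after these values had been seen, Tsp42Ej fell too (-0.54 and -0.68). Tsp42Ei rose (0.87, adjusted p = 1.32e-06, and 0.53, adjusted p = 0.000181). CR43051, now a protein-coding gene in an intron of bun on the opposite strand, had -0.76 (adjusted p = 0.0316) and -0.80 (adjusted p = 0.0189). Its wild-type call was lost without midlife library 2, 4 or 5 or young library 4 or 5, its chm/+ call was lost without midlife library 2, 3 or 11, and bun fell in wild type (-0.47, adjusted p = 0.036).

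Of members called in 1 genotype only, CR12628 fell in chm/+ (-0.65, adjusted p = 0.00364; -0.26 in wild type) and CR31781 rose in chm/+ (0.67, adjusted p = 0.000806; 0.29 in wild type). Their difference between genotypes did not pass (adjusted p = 0.832 and 0.763). Among further calls, CR42868 rose in wild type (0.85, adjusted p = 0.0474, lost in 13 of the fits that leave out 1 library), as did the histone pseudogenes His-Psi:CR33802 (0.51, adjusted p = 0.0106) and His-Psi:CR33811 (0.54, adjusted p = 0.0155). The call of His-Psi:CR33802 was lost without midlife wild-type library 5 (adjusted p = 0.058) and that of His-Psi:CR33811 without midlife library 1 or 5 (adjusted p up to 0.0659). CR43870 fell in wild type (-0.34) and in chm/+ (-0.37), calls lost in 5 and 1 of the fits that leave out 1 library, and in chm/+ with the replicate block (adjusted p = 0.135). The pncr rows now annotated as coding and alphagamma-element:CR32865 passed in no comparison.

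The pseudogene CR6900 (FBgn0030958, on X) was the 1 member whose age change differed between the genotypes. It held 37.4, 40.3, 34.7, 29.9 and 24.99 in young and 106, 91.98, 151 and 119 in midlife wild type, and 20.7 to 46.9 with a median of 34.9 in young and 35.1, 53.3, 54.04, 35.3 and 36.1 in midlife chm/+. The midlife wild-type libraries lay above all others, and the ages overlapped in chm/+. Its change was 1.44 in wild type (SE 0.17, adjusted p = 4.36e-06) and 0.23 in chm/+ (adjusted p = 0.353), a difference of -1.21 (SE 0.23, adjusted p = 0.0169). At midlife chm/+ was lower than wild type (log2 difference -1.19, SE 0.17, adjusted p = 0.000237). The call for the difference of age changes was lost without midlife wild-type library 4 (adjusted p = 0.0589), and within the column sets the values were -1.23 and -1.24 (adjusted p = 0.165 and 0.998). CG6961, which it overlaps on the opposite strand, had -0.05 and -0.04 with age.

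CR42785, a pseudogene in an intron of Tsp42Ea on 2R, showed a like pattern without passing. It held 9.66, 1.81, 14.1, 14.8 and 12.3 in young and 96.9, 28.5, 88.5 and 61.2 in midlife wild type, and 13.2 to 26.2 with a median of 18.3 in young and 28.8, 29.8, 39.1, 20.4 and 18.1 in midlife chm/+. It rose in wild type (1.67, adjusted p = 5.35e-05), and the difference between genotypes was -1.37 (SE 0.33, adjusted p = 0.0977). Without midlife wild-type library 2 that difference passed (-1.66, adjusted p = 0.0098), as it did without midlife chm/+ library 5 (adjusted p = 0.0484). Its neighbour Tsp42Eb, a tetraspanin looked at after these values had been seen, held 57.6 ± 29.7 and 1668 ± 365 in young and midlife wild type and 46.1 ± 10.6 and 335 ± 202 in chm/+ (SD, n = 5, 4, 6 and 5). Tsp42Eb rose by 4.61 and 2.19 on the log2 scale with age, but the difference of these changes did not pass (-2.43, adjusted p = 0.169). At midlife Tsp42Eb was lower in chm/+ than in wild type (log2 difference -2.60, SE 0.47, adjusted p = 0.0031). Tsp42Ea had -0.04 in wild type.

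Between genotypes, 4 young and 7 midlife members passed. Besides pncr009:3L, the young calls were CR32194, CR32027 and CR43361. CR32194 on 3L had 36.5, 36.3, 42.1, 68.9 and 59.3 in young wild type and 63.6 to 132 with a median of 95.3 in young chm/+ (log2 difference 0.80, SE 0.18, adjusted p = 0.0272), CR32027 in an intron of Indy, a citrate transporter gene, had 0.63 (adjusted p = 0.0192), and CR43361 on chromosome 4 had -0.32 (adjusted p = 0.0365). CR32194 shares exonic sequence with CG34253 on the same strand. The calls for CR32194, CR32027 and CR43361 were lost in 6, 3 and 8 of the fits that leave out 1 library, for CR32027 those without young wild-type library 1 or 3 or young chm/+ library 1.

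Besides pncr009:3L, Hsromega, CR43314, snoRNA:Psi28S-3186 and CR6900, the midlife calls were CR32385 and CR43468. CR32385 on 3L, in an intron of the G protein gene Galphai on the opposite strand, held 128, 67.2, 92.9 and 93.3 in midlife wild type and 155, 183, 159, 143 and 199 in midlife chm/+. The groups did not overlap (log2 difference 0.75, SE 0.14, adjusted p = 0.00389), and in young flies the value was 0.46 (adjusted p = 0.0773). CR43468, antisense in name but on the strand of the aspartyl-tRNA synthetase gene in the later annotation, had 0.52 (adjusted p = 0.0407), lost in 15 of the fits that leave out 1 library. None of the overlapping genes of the members called for genotype passed.

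**Figure D5:**
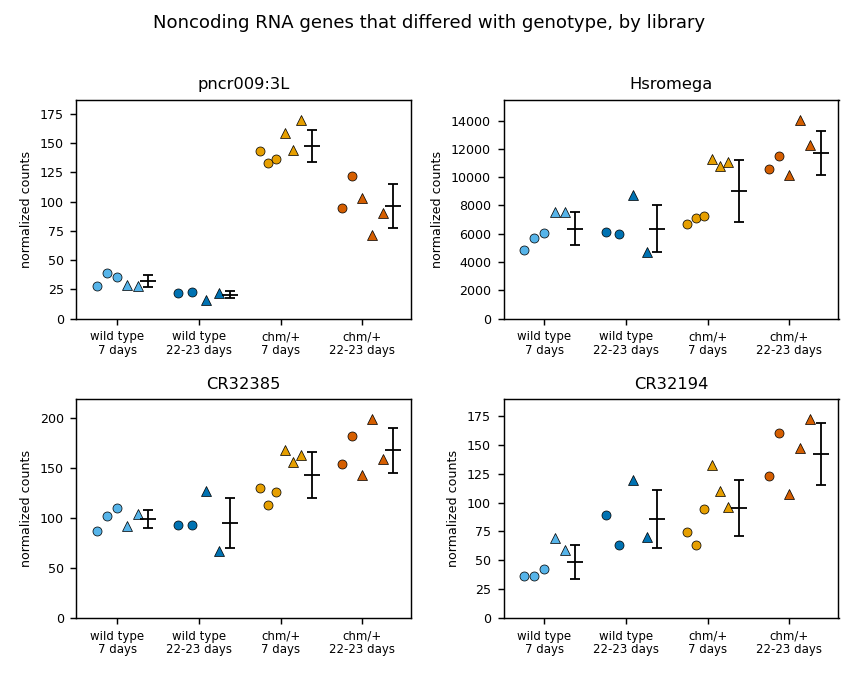
Normalized counts of the members named for genotype by library (vertical axis), pncr009:3L, Hsromega, CR32385 and CR32194, in the 4 groups, with circles for the first 10 columns, triangles for the last 10 and bars for the mean ± SD. All chm/+ libraries of pncr009:3L lie above all wild-type libraries.

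The ribosomal DNA rows and the rows without a match in the annotation, 31 in all, were spread by single libraries and gave no call. Midlife wild-type library 2, young chm/+ library 1 and young chm/+ library 4 were among the 3 highest libraries in 23, 27 and 27 of these rows. Their median log2 changes were 0.46 (ribosomal DNA rows) and 0.50 (rows without a match) for age in wild type and -0.13 for both in chm/+, and 0.76 and 0.71 for genotype in young flies. CR41602, a pseudogene of 18S ribosomal RNA, had 757, 986, 669, 1531 and 965 in young and 1541, 2696, 797 and 1293 in midlife wild type, and 643 to 3924 with a median of 1699 in young chm/+. In contrast the abundant X-linked rows CR34335 and CR40469 were lowest of all libraries in midlife wild-type library 2, at 3625 and 1227.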

How the data were processed

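Libraries were made from poly(A)-selected RNA of pooled heads. The deposited signal is a table of gene-level read counts that the authors had normalized to a common library size, so values are not whole and read depth is unknown, and no counting interval is given. Per the submitters' processing notes, TopHat2 2.0.5, edgeR and the genome build BDGP5 were used. The sources used here do not name the counter, the annotation or any filter. Columns were tied to a group by name, not to a single sample.

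Values were tested as log2(value + 14.5), an addend of 0.5 CPM, with limma 3.58.1 in R 4.3.3 (1 mean per group over 20 libraries, moderated with a mean trend, two-sided, Benjamini-Hochberg over 9831 genes, called below 0.05). Fold changes of scarce genes are understated by the addend. A filter of at least 1 CPM in at least 4 libraries removed 0 genes. The fit was run on simulated data with independent errors and without column sets or outlying libraries. The simulated SD was 0.19, the median of all genes, where members had 0.31, so that run does not test the fit at the members' spread. Deviations of same-numbered young and midlife chm/+ columns correlated positively over genes (0.635, 0.204, 0.165 and 0.357), so a fit with their numbers as a block was run. For young columns 3 and 11 another midlife column correlated better. In wild type same-numbered columns did not all correlate positively. The chm/+ pairs each lie within a column set and the wild-type pairs across the sets, so pairing and column set cannot be told apart. Columns without a same-numbered partner add nothing to the age change in the block fit. Named members were those called for the difference of age changes, the 6 highest and 6 lowest called changes and the 4 smallest p-values of the other comparisons, the 10 most abundant and all members not named CR plus digits. Further members were named after their values were seen. Members, lists and rules were chosen with earlier results of these data known. No sequences or coordinates are given, because the reference used here is of another build.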

Additional observations from a re-analysis of the deposited data

Results flagged for a closer look

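In 14 of 284 groups of 4 to 6 libraries over 71 named members, 1 library stood far from the others of its group by Dixon's test, and chance alone gives about 1 in 20. In midlife wild type CR43651 had 79.1 in library 2 where the others began at 115.2, CR43051 had 218 in library 1 where the others ended at 119.7, and pncr009:3L had 15.9 in library 1 where the others began at 21.6. In midlife chm/+ library 12 was high for CR43199 (115, others up to 90.3), CR42862 (184125, others up to 152670.1), pncr004:X (135, others up to 95.9) and CR43459 (343, others up to 243). In young wild type snoRNA:Me28S-A1322 had 24.3 in library 4 (others up to 17.1), CR43334 had 54.8 in library 1 (others from 75.3), and the histone pseudogenes His-Psi:CR33802 and His-Psi:CR33811 had 14.1 and 11.9 in library 1 (others from 21.6 for both). In young chm/+ CR12842 had 47.6 in library 2 (others from 66.98), CR31781 had 1459 in library 2 (others from 1817) and His-Psi:CR33802 had 33.3 in library 1 (others up to 28.5). The difference between genotypes in the age change of CR6900 was -1.21.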

How the results depend on the processing

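No named result changed direction where it was called. A percentage in brackets after a count of members is the share of all genes called in the same fit. That share was not computed for the fits that leave out 1 library, so whether those counts follow all genes was not determined. Counts without members sharing exons come from the main fit. The age count in wild type (38) was 11 with a filter of 5 CPM (106 members tested; 23.5%), 7 in the second column set alone (4.15%), 21 with the replicate block (15.5%) and 25 with only the groups compared (19.8%), and 20 to 39 when 1 library was left out (20 without midlife library 5, 24 without young library 1). In chm/+ (32) the counts were 13 (14.6%), 8 (3.71%) and 17 (7.09%) for the filter, the second set and the replicate block, and 27 to 38 without 1 library. Other settings raised the age counts. Array weights gave 56 in wild type (38.2%) and 46 in chm/+ (23.3%), and the column-set term gave 49 (31.4%) and 46 (22.4%). The first column set alone gave 40 (32.2%) and 41 (19.4%). With values divided by the column total, 15.6% of members and 14.9% of all genes passed in chm/+. For the difference of age changes (1) the count was 0 with the filter (0.298%), in the first or second set alone (0.702% and 0.0102%), with the replicate block (0.173%) and without members sharing exons with another gene, 2 with array weights (1.02%) or without midlife wild-type library 2, young chm/+ library 2 and midlife chm/+ library 12 together (0.407%; a choice made after seeing the data), and 0 to 2 on leaving out 1 library (0 without midlife wild-type library 4, 2 without midlife wild-type library 2 or midlife chm/+ library 5).

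Between genotypes in young flies (4) the counts were 1 with the filter (1.23%), 80 with array weights (72 higher and 8 lower; 32.5%), 9 with the column-set term (4.01%), 1 in the second set (0.173%), 7 without those 3 libraries (1.39%), 1 with the replicate block (0.336%) and 1 without members sharing exons (167 tested), and 1 to 7 on leaving out 1 library (1 without young wild-type library 3 or young chm/+ library 1, 2 without young wild-type library 1 or 2, 7 without midlife wild-type library 1). At midlife (7) they were 2 (1.68%), 21 (18 higher and 3 lower; 6.37%), 16 (13 higher and 3 lower; 3.63%), 1 (0.173%), 4 (2 higher and 2 lower; 1.34%), 1 (0.214%) and 2 under the same settings, and 4 to 13 (4 without midlife wild-type library 4, 13 without library 1 of that group). The causes were not tested. In wild type and between genotypes same-numbered columns did not all deviate together, so their block fits are given only here. Between genotypes, deviations correlated positively for columns numbered 2 (0.656 in young and 0.412 in midlife flies). They also did for columns numbered 3 in young flies (0.36) and 5 in midlife flies (0.126). For columns numbered 1 and 4 in young flies the correlations were negative (-0.407 and -0.524). The spread limits precision: the median SD between libraries of a group was 0.31 for members and 0.19 for all genes on the log2 scale. Why the members were more widely spread was not tested.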
